A study of Mus musculus with 48 samples.

Results

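The 10 genes described here act in holding back the cell cycle, in its control through p53 or in the repair of DNA. They are Wee1, Cdkn1a, Ccng1, Gadd45a, Gadd45g, Mdm2, Ddb2, Xpa, Xpc and Ung. They were taken as a given list of gene symbols, and all 10 of them were found among the 12423 genes measured at both levels and among the 11863 genes abundant enough to be tested (median of at least 0.5 RPKM in each assay). The samples were kidneys of male C57BL/6JRj mice aged 11 to 12 weeks, kept under a cycle of 12 h light and 12 h dark and killed every 2 h from ZT00 (lights on, in Zeitgeber time) to ZT22. There was no treatment and no mutant, so time of day was the only planned variable. The paper states that collection ran over 2 daily cycles, and the sample labels do not name the day of a pool. At each of the 12 timepoints there were 2 replicate pools of 2 mice, and each lysate pool gave 1 RNA-seq library, which measures transcript abundance, and 1 RPF-seq library, which sequences the mRNA fragments protected by ribosomes and so measures translation. This makes 24 libraries per assay. Values are RPKM, that is, reads on the coding sequence scaled by its length and by the depth of the library. Translation efficiency (TE) is RPF RPKM divided by RNA RPKM of the same pool.

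In dividing cells, damage to DNA stabilises the transcription factor p53, which induces the cyclin-dependent kinase inhibitor encoded by Cdkn1a, its own negative regulator Mdm2, and Ccng1 and Gadd45a. Independently, the kinase encoded by Wee1 holds cells before mitosis by phosphorylating the mitotic kinase CDK1, and in liver its gene is a classic output of the circadian clock. Bulky lesions such as those caused by ultraviolet light are removed by nucleotide excision repair, in which the products of Ddb2 and Xpc find the damage and that of Xpa assembles the repair complex, whereas uracil in DNA is excised by the product of Ung, the first step of base excision repair.

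The depth behind single genes was uneven. Each RPKM value of the 10 genes could be traced back to a whole number of reads. By the same scaling, the 3276 genes with a single coding length held 3413744 to 11037945 reads per RNA-seq library and 4026187 to 8590803 per RPF-seq library. The medians were higher in libraries of the light phase than of the dark phase (5450736 against 4569041 in RNA-seq, and 6508438 against 5196892 in RPF-seq). Of the 10 genes, Ccng1 rested on the most RNA reads, with 1972 to 6029 per library. Ung rested on 2 to 38 and Cdkn1a on 6 to 71 RNA reads, so single RNA values of these genes carry a large counting error. The pools ZT04 replicate 2 and ZT16 replicate 2 had RPF-seq libraries that lay farther from the typical profile than any other library (median absolute log2 deviation of 0.198 and 0.207, against a median of 0.118 over the RPF-seq libraries). Without these pools the same 3, 5 and 2 genes as given next were called in RNA, RPF and TE. Because the kidney was sequenced as a whole, fewer cells of a type and less RNA per cell cannot be told apart.

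To ask which of the 10 genes vary with time of day, a 24-h wave was fitted to log2(RPKM + 0.1) of each assay with limma. A gene was called rhythmic at a Benjamini-Hochberg FDR under 0.05 and a fitted peak-to-trough fold of at least 1.5. Wee1, Cdkn1a and Ung were called in RNA-seq, 3 of 10 where 10.2% of all tested genes were called. In RPF-seq, 5 of 10 genes were called (Wee1, Cdkn1a, Gadd45g, Ddb2 and Xpa), against 7.58% of all tested genes. TE was called rhythmic for Cdkn1a and Ccng1, 2 of 10 against 3.74% of all tested genes. Without the fold minimum, the FDR alone was passed by 6 of 10 genes in RNA-seq (Ccng1, Xpa and Xpc in addition, 48.6% of all tested genes), by 7 of 10 in RPF-seq (Ccng1 and Xpc in addition, 30.9%) and by 5 of 10 in TE (Wee1, Gadd45g and Mdm2 in addition, 17.1%). A test for a difference between any timepoints, which assumes no shape, called 6 genes in RNA-seq (Wee1, Cdkn1a, Ccng1, Gadd45a, Xpa and Xpc, against 31.0% of all tested genes) and 5 in RPF-seq (Wee1, Cdkn1a, Gadd45a, Ddb2 and Xpa, against 12.8%).

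**Figure D1:**
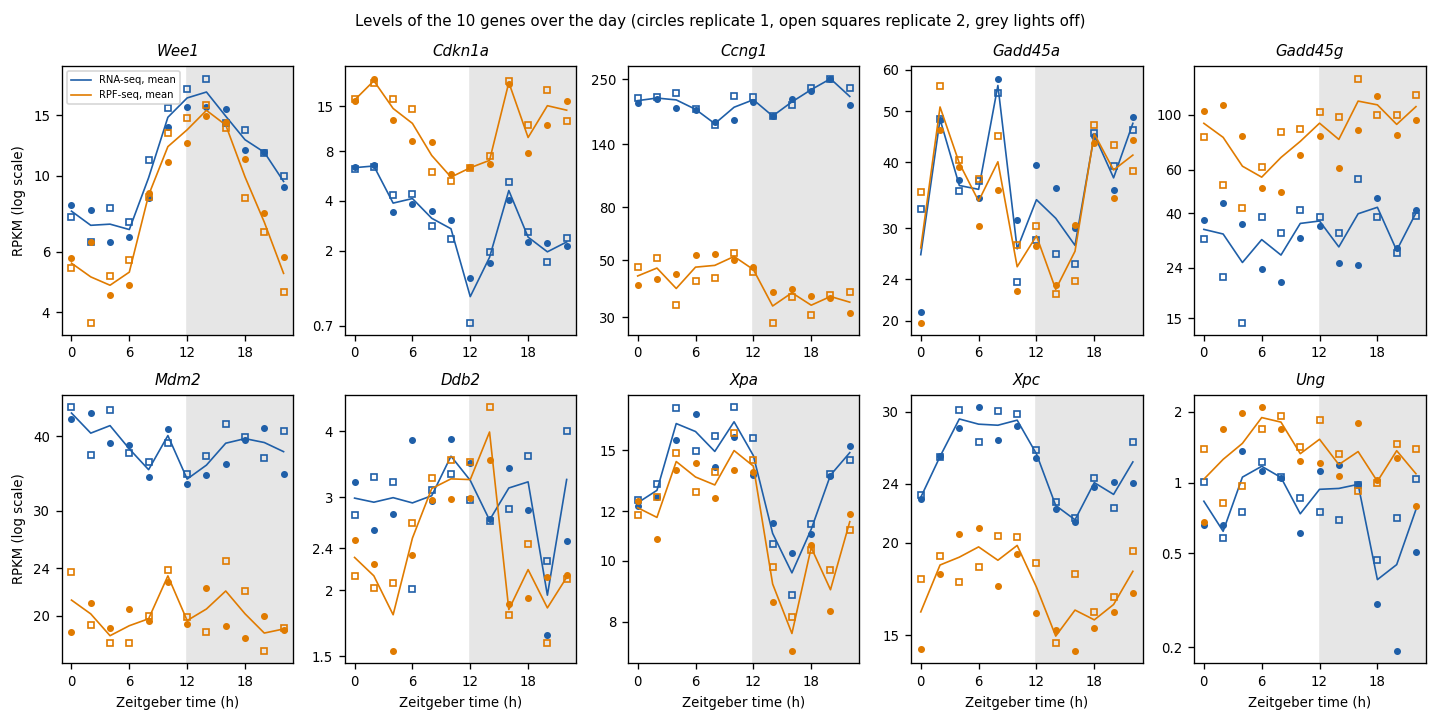
RPKM (log scale, a different range for each gene) against Zeitgeber time for the 10 genes, with RNA-seq in blue and RPF-seq in orange, filled circles for replicate 1, open squares for replicate 2, lines through timepoint means and the dark phase in grey. Wee1 had its highest mean at ZT14 at both levels, Ccng1 had its highest RNA mean at ZT20 and its highest RPF mean at ZT10, and Cdkn1a had a second high point at ZT16.

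Wee1 had the clearest daily rhythm of the 10 genes. It lies on chromosome 7 (GRCm38, 110122046 to 110143286, forward strand). Over the 24 RNA-seq libraries its level ran from 6.40 RPKM through a median of 11.4 to 19.2 RPKM. At ZT04 the pools gave 6.41 and 8.04 RPKM and at ZT14 they gave 15.9 and 19.2 RPKM. All 10 libraries from ZT00 to ZT08 were below all 10 libraries from ZT10 to ZT18. The fitted RNA fold was 2.46 (log2 1.30 ± 0.10, SE, 24 libraries, limma, FDR 6.8e-10) with a peak at 14.4 ± 0.29 h (SE), and the wave accounted for a share of the variance of 0.889.

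Wee1 footprints swung further than the transcript. They ran from 3.73 RPKM through a median of 8.20 to 16.1 RPKM, and both ZT14 pools (14.9 and 16.1 RPKM) were above every library of any other timepoint. The fitted RPF fold was 3.29 (log2 1.72 ± 0.12, SE, limma, FDR 2.4e-10), with a peak at 13.7 ± 0.27 h. By timepoint mean, TE of Wee1 was lowest at ZT22, with 0.627 and 0.458 in its pools, and highest at ZT16, with 0.918 and 0.969. Its fitted TE fold of 1.42 (log2 0.51 ± 0.12, SE, peak at 11.8 ± 0.89 h, limma, FDR 0.015) passed the FDR but not the fold minimum. The RPF peak preceded the RNA peak by 0.737 h, with an SE of 0.391 h from both fits.

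The genes whose profiles were most like that of Wee1 over the 24 libraries were Per2 (Pearson r of 0.906), the aquaporin gene Aqp11 (0.906) and the prion protein gene Prnp (0.903) in RNA-seq, and Herpud1 (0.938), Per2 (0.921) and Vasn (0.916) in RPF-seq. Per2, a repressor of the clock, had its fitted peak at 14.7 h in RNA and 14.8 h in RPF, and with 7.73-fold in RNA it swung more than Wee1. The correlations share time of day, library and normalisation between their points and are given as descriptions.

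Cdkn1a encodes the inhibitor p21, which blocks cyclin-dependent kinases and is the best known target of p53. It lies on chromosome 17 (29090976 to 29100727, forward strand) and has a coding sequence of 477 bases. Its first promoter and those of Ccng1 and Gadd45g are shown as examples with a p53 or E-box match among the genes with a called 24-h wave. Each is the 250 bases before the start site in RefSeq (GRCm38.p6), at chr17:29090729-29090978 on the forward strand, chr11:40755287-40755536 on the reverse strand and chr13:51846425-51846674 on the forward strand. Capitals mark matches on either strand to the p53 half-site, a 10-base consensus, to the E-box CACGTG bound by CLOCK and ARNTL, and to the CCAAT box.
Cdkn1a: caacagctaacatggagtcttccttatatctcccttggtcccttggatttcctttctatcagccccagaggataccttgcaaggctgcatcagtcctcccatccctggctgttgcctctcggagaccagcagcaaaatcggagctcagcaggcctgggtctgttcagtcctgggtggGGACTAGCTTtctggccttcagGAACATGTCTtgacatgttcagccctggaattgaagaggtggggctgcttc
Ccng1: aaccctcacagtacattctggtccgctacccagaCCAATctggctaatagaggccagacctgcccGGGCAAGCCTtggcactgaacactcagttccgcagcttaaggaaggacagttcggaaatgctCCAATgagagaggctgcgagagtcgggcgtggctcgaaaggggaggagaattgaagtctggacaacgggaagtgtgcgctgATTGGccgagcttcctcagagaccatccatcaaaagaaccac
Gadd45g: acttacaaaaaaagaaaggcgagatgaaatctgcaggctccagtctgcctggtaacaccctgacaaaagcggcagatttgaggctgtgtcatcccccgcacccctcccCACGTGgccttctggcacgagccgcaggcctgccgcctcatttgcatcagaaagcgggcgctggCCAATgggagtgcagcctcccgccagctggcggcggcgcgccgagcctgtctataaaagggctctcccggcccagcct

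In the first Cdkn1a promoter the p53 half-site matches began 73 and 51 bases before the start. The match in Ccng1 began 185 bases before, and the E-box in Gadd45g 142 bases before. The second Cdkn1a promoter (chr17:29093519-29093768, forward strand) had 0 matches to the p53 half-site, the E-box or the CCAAT box. RefSeq promoters were matched for 7 of the 10 genes (all but Wee1, Ddb2 and Xpc), 8 promoters in all. The counts that follow are of genes, while the shares over all genes are of promoters. A p53 half-site was matched in 4 of the 7 genes, with Gadd45a at 40 bases and Mdm2 at 186 bases before the start, and in 7.13% of 32851 promoters of all genes. The E-box was matched in Gadd45g alone among the 7 and in 6.02% of all promoters, and CCAAT in 5 of the 7 (Ccng1, Gadd45a, Gadd45g, Mdm2 and Xpa) and in 33.8% of all. These are matches of letters and not measured binding.

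Cdkn1a transcripts were high around lights-on and again at ZT16. At ZT00 the RNA pools held 6.45 and 6.29 RPKM and at ZT02 6.60 and 6.43 RPKM. At ZT12 they held 1.37 and 0.733 RPKM, from 22 and 6 reads. At ZT16 they held 4.03 and 5.23 RPKM, between 1.68 and 1.96 RPKM at ZT14 and 2.25 and 2.59 RPKM at ZT18, so that ZT16 did not overlap with its neighbours. The fitted RNA fold was 2.54 (log2 1.34 ± 0.32, SE, 24 libraries, limma, FDR 0.0046) with a peak at 2.12 ± 0.91 h, and the timepoint means spanned 5.97-fold on the log2(RPKM + 0.1) scale. The single wave accounted for a share of only 0.406 of the variance.

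The footprints of Cdkn1a had a higher RPKM and shared the high points at ZT02 and ZT16, but not the whole course. They were lowest at ZT10, with 5.85 and 5.31 RPKM, where the RNA had its lowest mean at ZT12. At ZT20 the RNA pools held 2.24 and 1.70 RPKM, near the values of ZT14, while the RPF pools held 11.5 and 18.7 RPKM. The ZT02 pools gave 22.1 and 20.7 RPKM, and the ZT16 pools gave 20.4 and 21.4 RPKM between 6.66 and 7.44 RPKM at ZT14 and 7.79 and 11.6 RPKM at ZT18. The levels at ZT02 and ZT16 overlapped, and every other library was below both pairs. The fitted RPF fold was 2.63 (log2 1.40 ± 0.25, SE, limma, FDR 0.00059), with a peak at 23.2 ± 0.68 h. Since a 24-h wave has 1 maximum, this peak time falls between the pair of high points, and without ZT16 (chosen after seeing the data) it moved to 0.279 h with a fold of log2 1.61 (limma, FDR 3.5e-07).

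Steps between neighbouring timepoints were therefore also tested, for all genes and all 12 steps at once, a test chosen after seeing the data. In RNA-seq 0.126% of the steps of all tested genes were called and in RPF-seq 0.0267%, and 4 RNA steps and 1 RPF step of the 10 genes were among them. For Cdkn1a, RNA fell by 1.33 on the log2 scale from ZT10 to ZT12 (SE 0.23, limma, FDR 0.032), rose by 1.29 from ZT14 to ZT16 (SE 0.23, FDR 0.041) and rose by 1.46 from ZT22 to ZT00 (SE 0.23, FDR 0.021). Its RPF level rose by 1.56 from ZT14 to ZT16 (SE 0.25, limma, FDR 0.048). The remaining call was the fall of Gadd45a RNA from ZT08 to ZT10. At ZT16 the red blood cell markers Hba-a1 and Hbb-bt were also at their highest, with a summed mean of 216 RPKM in RNA-seq against a median of 57.2 RPKM over the libraries. The summed markers of the collecting duct (206 against 139 RPKM in RNA-seq, and 392 against 225 in RPF-seq), of the thick ascending limb (3683 against 3001 in RNA-seq, and 5944 against 4301 in RPF-seq) and, in RPF-seq, of dividing cells (37.7 against 28.6) had their highest timepoint mean at ZT16 too. The ZT16 replicate 2 pool is one of those that lay apart, but replicate 1 showed as high an RPF level. The part of these markers and of this pool in the Cdkn1a values was not tested.

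TE of Cdkn1a was higher in the dark phase. The 12 pools of the light phase (ZT00 to ZT10) ran from 1.91 through a median of 2.62 to 3.83, and the 12 pools of the dark phase from 3.47 through 4.86 to 11.0, so that the ranges overlapped only at their ends. The highest value, 11.0 at ZT20 replicate 2, and the next highest, 8.63 at ZT12 replicate 2, rested on 8 and 6 RNA reads. The fitted TE fold was 2.05 (log2 1.03 ± 0.28, SE, 24 pools, peak at 18.8 ± 1.0 h, limma, FDR 0.033). This call was lost without ZT16 (FDR 0.052), with quantile normalisation (FDR 0.052), with a 12-h harmonic (FDR 0.13) and without replicate 1 or 2 (FDR 0.39 and 0.20), although the log2 fold stayed between 0.94 and 1.13 in these and the other settings that leave out pools or change the scaling. The RNA and RPF calls of Cdkn1a were lost without replicate 1 as well (log2 1.46 with FDR 0.14, and log2 1.499 with FDR 0.062), with folds no smaller than those from all libraries.

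Among the genes with RNA profiles most like that of Cdkn1a were Ddit4l (r of 0.826), the formin gene Diaph1 (0.819) and the Hippo pathway gene Sav1 (0.813). In RPF-seq they were Npnt (0.877), the integrin gene Itga6 (0.860) and the clock activator Arntl (0.844), whose fitted RPF peak was at 22.7 h.

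Ccng1 encodes cyclin G1, an atypical cyclin that brings a phosphatase to Mdm2. It lies on chromosome 11 (40748552 to 40755311, reverse strand). It had the highest transcript level of the 10 genes, from 166 RPKM through a median of 206 to 251 RPKM. The RNA pools were lowest at ZT08, with 170 and 166 RPKM, and highest at ZT20, with 251 and 250 RPKM, and both ZT20 values were above all other libraries. Its footprints, in contrast, ran from 28.7 RPKM through 40.7 to 53.2 RPKM. By timepoint mean they were highest at ZT10, with 50.1 and 53.2 RPKM, and lowest at ZT14, with 37.8 and 28.7 RPKM.

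The transcript and footprint waves of Ccng1 were close to opposite. The RNA peak was fitted at 20.8 ± 0.87 h (fold 1.24, log2 0.31 ± 0.07, SE, limma, FDR 0.0030) and the RPF peak at 6.92 ± 0.86 h (fold 1.39, log2 0.48 ± 0.11, SE, limma, FDR 0.0050). They lay 10.2 h apart, with an SE of 1.22 h, and neither passed the fold minimum. In TE the difference became a called rhythm of 1.70-fold (log2 0.76 ± 0.12, SE, 24 pools, limma, FDR 0.0014) with a peak at 7.64 ± 0.61 h. TE rose from 0.142 and 0.146 at ZT20 to 0.310 and 0.257 at ZT08. In each replicate series alone the RNA peak stayed near 21 h (21.2 and 20.4 h) and the RPF peak in the light phase (5.42 and 7.93 h). Without replicate 1 the TE rhythm of Ccng1 lost its call (log2 0.62, FDR 0.29), and without replicate 2 it kept it (log2 0.93, FDR 0.041).

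**Figure D2:**
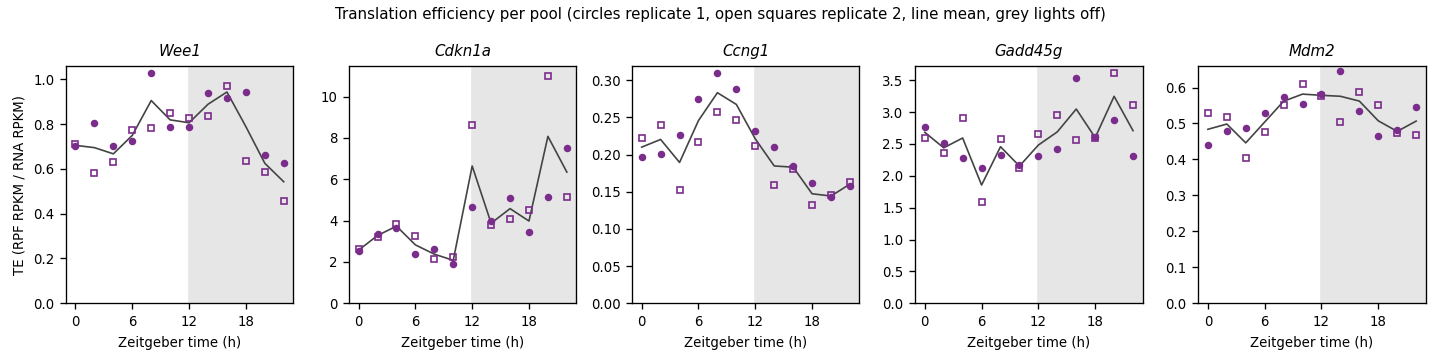
TE (RPF RPKM divided by RNA RPKM, linear axis from 0) against Zeitgeber time for the 5 genes with a TE rhythm at an FDR under 0.05, 1 symbol per pool (filled circles replicate 1, open squares replicate 2), lines through timepoint means and the dark phase in grey. Ccng1 was highest around ZT08 and lowest at ZT18 and ZT20, and the highest Cdkn1a values lay at ZT12 and ZT20.

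Mdm2 encodes the ubiquitin ligase that marks p53 for degradation. It lies on chromosome 10 (117688875 to 117710758, reverse strand) and had the smallest fitted folds of the 10 genes at both levels. Its RNA ran from 33.3 RPKM through 38.9 to 44.8 RPKM (FDR 0.060, limma) and its footprints from 17.4 RPKM through 19.5 to 24.7 RPKM (FDR 0.51, limma). The fitted folds were 1.14 in RNA (log2 0.19 ± 0.07, SE) and 1.08 in RPF (log2 0.11 ± 0.08, SE). TE varied by 1.23-fold (log2 0.30 ± 0.08, SE, peak at 12.4 ± 0.98 h, limma, FDR 0.027), below the fold minimum. It ran from 0.405 to 0.647 over the 24 pools.

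Gadd45a and Gadd45g encode small stress-induced proteins that bind cell cycle and kinase partners and promote growth arrest. Gadd45a (chromosome 6, 67035096 to 67037457, reverse strand) had a time course that changed from one timepoint to the next and was not described by a 24-h wave (RNA fold 1.23, limma, FDR 0.43). Its RNA pools held 20.8 and 32.6 RPKM at ZT00, 48.2 and 48.4 RPKM at ZT02, 57.7 and 54.3 RPKM at ZT08 and 31.1 and 23.7 RPKM at ZT10. The ZT08 values were above those of all other libraries. The test of any timepoints gave a 2.14-fold range in RNA (limma, FDR 0.0022), and the step from ZT08 to ZT10 was a fall by 1.04 on the log2 scale (SE 0.19, limma, FDR 0.037).

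Footprints of Gadd45a ran from 19.9 RPKM through 35.3 to 55.9 RPKM. By timepoint mean they were highest at ZT02, with 46.1 and 55.9 RPKM, and lowest at ZT14, with 23.4 and 22.5 RPKM. The range of 2.21-fold between timepoints passed the test (limma, FDR 0.0094) while the 24-h wave of 1.499-fold did not (log2 0.58 ± 0.19, SE, peak at 0.704 h, limma, FDR 0.052). The high ZT08 transcript level had no equal in the footprints, which were 35.4 and 44.8 RPKM there. TE was at its lowest at ZT08, with a mean of 0.719, but no TE rhythm was called (limma, FDR 0.21). On the opposite strand, 238 of the 495 coding bases of Gadd45a are shared with exons of E230016M11Rik, and whether counting used strand is not given in the sources used here.

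Gadd45g (chromosome 13, 51846678 to 51848468, forward strand) differed more between replicate pools than nearly all other genes. At ZT16 its RNA was 24.6 RPKM in replicate 1 and 54.9 RPKM in replicate 2, and at ZT04 it was 36.1 and 14.4 RPKM. The RPF libraries of the same pools gave 87.2 and 140 RPKM at ZT16 and 81.9 and 42.0 RPKM at ZT04. In both cases replicate 2 is one of the pools that lay apart, and without them the RNA fold of Gadd45g was log2 0.15 and the RPF fold, still called, log2 0.65 (limma, FDR 0.75 and 0.020). The same pool was the higher one in both assays, as at 10 of the 12 timepoints, against a median of 7 over all tested genes. The SD between replicates was 0.475 (log2) in RNA, above that of 98.0% of the tested genes, and 0.425 in RPF, but only 0.202 in TE.

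The RNA of Gadd45g was not called rhythmic (fold 1.32, log2 0.40 ± 0.22, SE, limma, FDR 0.29), whereas its footprints were (fold 1.76, log2 0.82 ± 0.19, SE, peak at 18.3 ± 0.89 h, limma, FDR 0.0062). They ran from 42.0 RPKM at ZT04 through a median of 86.3 to 140 RPKM at ZT16. TE varied by 1.35-fold (log2 0.44 ± 0.12, SE, peak at 19.0 ± 1.0 h, limma, FDR 0.033), which is below the fold minimum. The any-timepoints test called neither level (limma, FDR 0.64 in RNA and 0.28 in RPF). The RPF profiles most like that of Gadd45g included those of Tkt (r of 0.762) and Tnpo2 (0.746).

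The 3 genes of nucleotide excision repair all had fitted peaks in the light phase at both levels, that of Ddb2 RNA (9.31 ± 2.7 h) from a wave that did not pass the FDR. Xpa and Ddb2 were called in RPF-seq alone, and Xpc at neither level. The FDR alone was passed by Xpc and Xpa at both levels and by Ddb2 in RPF-seq only. Xpc (chromosome 6, 91489305 to 91515888, reverse strand) encodes the protein that first recognises distorted DNA. Its RNA ran from 21.3 RPKM through 26.1 to 30.5 RPKM, with 28.5 and 30.2 RPKM at ZT04 and 21.3 and 21.6 RPKM at ZT16. The wave was small but well above the replicate spread (fold 1.30, log2 0.37 ± 0.06, SE, peak at 6.33 ± 0.62 h, limma, FDR 0.00010), and the footprints had a fold of 1.24 (log2 0.31 ± 0.08, SE, peak at 5.66 ± 0.96 h, limma, FDR 0.012). TE of Xpc had the smallest fitted fold of the 10 genes (1.06, limma, FDR 0.59).

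Xpa (chromosome 4, 46155347 to 46196311, reverse strand) had a similar phase and a larger swing. Its RNA ran from 8.83 RPKM through 13.7 to 17.6 RPKM and its footprints from 7.18 RPKM through 12.2 to 16.003 RPKM. At ZT10 the RPF pools held 13.98 and 16.003 RPKM and at ZT16 they held 7.18 and 8.14 RPKM, the lowest pair of the series. The RPF fold was 1.58 (log2 0.66 ± 0.11, SE, peak at 6.12 ± 0.64 h, limma, FDR 0.00030) and the RNA fold 1.41 (log2 0.50 ± 0.11, SE, peak at 5.63 ± 0.81 h, limma, FDR 0.0016), just below the minimum. The RPF call of Xpa was lost without ZT16 (log2 0.55, FDR 0.0012) and without replicate 1 (log2 0.65, FDR 0.051). RNA profiles of Xpa and Xpc had a Pearson r of 0.857 over the 24 libraries, the highest of all pairs among the 10 genes, and in RPF-seq it was 0.636. The RPF profiles most like that of Xpa were those of Hnrnpd (r of 0.880), Pcmtd2 (0.871) and Kiz (0.868).

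Ddb2 (chromosome 2, 91211572 to 91236982, reverse strand) encodes the subunit that binds ultraviolet lesions and hands them to Xpc. It was one of the lowest of the 10 genes, with 22 to 152 RNA reads and 32 to 137 RPF reads per library. Its RNA ran from 1.65 RPKM through 2.96 to 4.01 RPKM and had no called rhythm (fold 1.17, log2 0.22 ± 0.16, SE, limma, FDR 0.47). Its footprints climbed from 1.53 and 2.06 RPKM at ZT04 to 3.53 and 4.45 RPKM at ZT14 and were at 1.88 and 1.80 RPKM at ZT16. The fitted RPF fold was 1.67 (log2 0.74 ± 0.16, SE, peak at 10.9 ± 0.83 h, limma, FDR 0.0035). The step from ZT14 to ZT16 was -1.07 on the log2 scale (SE 0.20) and did not pass (limma, FDR 0.086). The RPF call of Ddb2 was lost without either replicate (log2 0.95 with FDR 0.071 without replicate 1, log2 0.54 with FDR 0.19 without replicate 2) and, by its fold, with a pseudocount of 1 (log2 0.56).

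A difference between the RNA and RPF time courses of Ddb2 was not shown by the test used here, since the TE wave of 1.46-fold did not pass (log2 0.54 ± 0.23, SE, limma, FDR 0.20). With another method, Babel, the paper names Ddb2 among its clearest kidney cases of rhythmic translation without a transcript rhythm. That method was not run here. On the opposite strand 273 of the 1296 coding bases of Ddb2 are shared with exons of Acp2, and 77 of 1191 of Xpa with exons of Ncbp1. The RPF profiles most like that of Ddb2 were those of Mtm1 (r of 0.812), the endocytic adaptor gene Dab2 (0.799) and Gnptab (0.797).

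Ung (chromosome 5, 114130386 to 114139323, forward strand) encodes uracil-DNA glycosylase and was the least abundant of the 10 genes. Its RNA ran from 0.192 RPKM through 0.808 to 1.36 RPKM and its footprints from 0.680 RPKM through 1.35 to 2.10 RPKM. At ZT06 the RNA pools held 1.12 and 1.23 RPKM (19 and 20 reads) and at ZT18 0.304 and 0.471 RPKM (4 and 5 reads). The RNA fold was 1.81 (log2 0.86 ± 0.27, SE, peak at 7.83 ± 1.2 h, limma, FDR 0.033). The RPF fold was 1.48 (log2 0.57 ± 0.21, SE, peak at 8.34 ± 1.4 h, limma, FDR 0.11). The RNA call was lost without replicate 1 (log2 0.38, FDR 0.64), with a pseudocount of 1 (log2 0.38), with quantile normalisation (log2 0.65, FDR 0.073) and with a 12-h harmonic (log2 0.96, FDR 0.074). RNA profiles most like that of Ung were those of Rgmb (r of 0.794), the DNA repair gene Parp3 (0.777) and Ndrg4 (0.757).

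**Figure D3:**
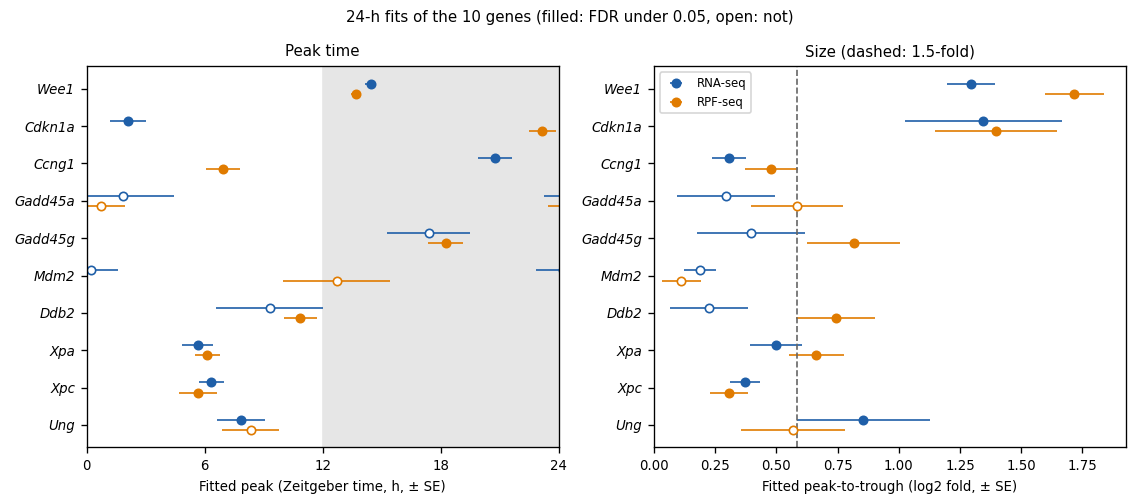
Left, fitted peak time (Zeitgeber time in h, ± SE) and right, fitted peak-to-trough size (log2 fold, ± SE, dashed line at 1.5-fold) of the 10 genes, with RNA-seq in blue, RPF-seq in orange, and open symbols where the FDR was not under 0.05. The peaks of Xpa and Xpc lay between 5.63 and 6.33 h at both levels, that of Ung RNA at 7.83 h, those of Wee1 near 14 h, and the RNA and RPF peaks of Ccng1 lay 10.2 h apart.

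Ordered by mean RNA RPKM over the 24 libraries (± SD), Ccng1 led with 205 ± 22.8, followed by Mdm2 (38.7 ± 3.42), Gadd45a (37.8 ± 9.77), Gadd45g (33.6 ± 9.15), Xpc (25.7 ± 2.94), Xpa (13.7 ± 2.37), Wee1 (11.4 ± 3.91), Cdkn1a (3.41 ± 1.74), Ddb2 (3.00 ± 0.575) and Ung (0.829 ± 0.302). Neighbours in this order differed by less than the larger of their SDs, except Ccng1 and Mdm2, Xpc and Xpa, Wee1 and Cdkn1a, and Ddb2 and Ung. The order by mean RPF RPKM was another one. Gadd45g came first with 86.0 ± 25.002 RPKM, ahead of Ccng1 (41.3 ± 7.30), Gadd45a (35.2 ± 9.44), Mdm2 (20.2 ± 2.02), Xpc (17.6 ± 2.03), Cdkn1a (12.5 ± 5.60), Xpa (11.8 ± 2.39), Wee1 (8.94 ± 4.00), Ddb2 (2.53 ± 0.731) and Ung (1.36 ± 0.407). Here the neighbours that differed by more than the larger SD were Gadd45g and Ccng1, Gadd45a and Mdm2, Mdm2 and Xpc, Wee1 and Ddb2, and Ddb2 and Ung.

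These shifts in order are differences in TE, which was set against the median gene of the same pool and tested over the 24 pools. Called at an FDR under 0.05 and at least 1.5-fold, 3 of the 10 genes lay above the median gene, where 20.6% of all tested genes did, and 2 lay below, where 26% did. TE of Cdkn1a was 3.89 times that of the median gene (log2 1.96 ± 0.12, SE, limma, FDR 6.4e-15), above 99.8% of the tested genes. Gadd45g was at 2.68 times (log2 1.42 ± 0.05, SE, limma, FDR 3.2e-20) and Ung at 1.70 times (log2 0.77 ± 0.10, SE, limma, FDR 6.3e-08). With a pseudocount of 1 the level of Ung was log2 0.44, within the 1.5-fold limit, and its call was lost.

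At the other end, Ccng1 lay 4.74-fold below the median gene (log2 -2.25 ± 0.07, SE, limma, FDR 3.7e-22), at percentile 2.16, and Mdm2 1.81-fold below (log2 -0.86 ± 0.03, SE, limma, FDR 3.1e-19). Gadd45a was at the median (log2 -0.03 ± 0.05, SE, limma, FDR 0.59). Wee1, Ddb2, Xpa and Xpc lay between log2 -0.46 and -0.14, within the 1.5-fold limit. In every one of the 24 pools TE of Ccng1 was at most 0.310 and that of Gadd45g at least 1.58, so these genes never overlapped.

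**Figure D4:**
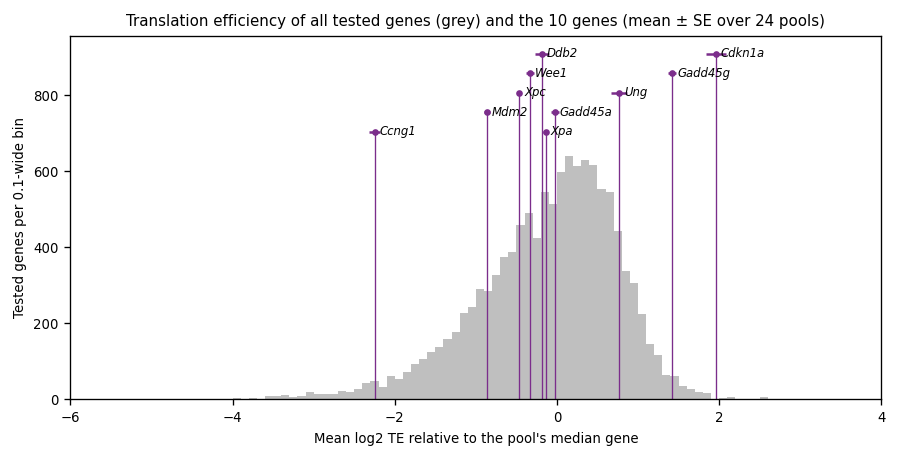
Distribution of mean log2 TE relative to the pool's median gene over all 11863 tested genes (grey bars, number of genes per bin on the vertical axis), with the 10 genes as purple markers (mean ± SE over 24 pools) at heights chosen only for legibility. Cdkn1a and Gadd45g lie in the right tail, Ccng1 in the left tail and Gadd45a at the median.

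The other genes of these pathways were looked at as lists. The list of p53 targets beyond the 10 held 28 genes, with the p53 gene Trp53 itself among them, and 26 were tested. In RNA-seq 4 of them were called (against 10.2% of all tested genes), with a median fitted fold of 1.22 against 1.21 over all tested genes, and in RPF-seq 4 (against 7.58%), with a median of 1.22 against 1.18. The kinase gene Plk3 had the largest fold at both levels (2.26 in RNA with a peak at 14.2 h, and 2.17 in RPF with a peak at 14.6 h), ahead of the apoptosis gene Bbc3 (1.87, peak at 5.76 h) and Phlda3 (1.83, peak at 6.80 h) in RNA, and of Plk2 (1.80, peak at 5.18 h) and Trp53inp1 (1.55, peak at 2.44 h) in RPF.

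Among 29 further genes of cell cycle control 24 were tested, and 8 were called in RNA-seq (median fold 1.30, against 10.2% called of all tested genes) and 1 in RPF-seq (median fold 1.24, against 7.58%). Without the fold minimum 14 and 9 had an FDR under 0.05 (against 48.6% and 30.9% of all tested genes), and 14 in each assay had an unadjusted p under 0.05. The difference between the assays was not tested. The largest RNA folds were those of the cyclin genes Ccne2 (2.11, peak at 18.1 h), Ccnd2 (2.09, peak at 7.71 h) and Ccnd1 (1.79, peak at 10.8 h). The call in RPF-seq was Ccnd1 (1.71, peak at 12.4 h). TE was called for Ccnd2 alone, 1 of 24 against 3.74% of all tested genes.

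Of 28 listed genes of nucleotide excision repair outside the 10, 27 were tested. In RNA-seq 1 was called (the ligase gene Lig1, 1.503-fold with a peak at 7.39 h, against 10.2% of all tested genes), and 11 had an FDR under 0.05 without the fold minimum (against 48.6%). In RPF-seq 0 were called by limma (against 7.58%), where 4 had an FDR under 0.05 without the fold minimum (against 30.9%) and 6 an unadjusted p under 0.05. The median folds were 1.15 in RNA and 1.09 in RPF, against 1.21 and 1.18 over all tested genes. Of 20 genes of base excision repair 18 were tested, and Neil2, a DNA glycosylase gene, was called at both levels (3.25-fold in RNA and 2.36-fold in RPF, with peaks at 6.47 and 6.49 h). Mpg, another DNA glycosylase gene, was called in RNA alone (1.59-fold, peak at 7.38 h). These calls are 2 of 18 in RNA-seq (against 10.2% of all tested genes) and 1 of 18 in RPF-seq (against 7.58%). In TE, 0 genes of the p53 target list and of both repair lists were called by limma (against 3.74% of all tested genes). Without the fold minimum 3, 5 and 1 had an FDR under 0.05 (against 17.1%), and 10, 8 and 3 had an unadjusted p under 0.05. For reference, all 17 clock genes listed were called in RNA-seq and in RPF-seq, with median folds of 6.09 and 6.21. Both assays of a pool share the animals, so these calls are not independent of each other.

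As a check of the tissue, the proximal tubule genes Slc34a1, Lrp2, Slc5a2, Slc22a6 and Kap summed to 41210 to 68010 RPKM in RNA-seq. Over 11 lists of cell types, 30 of 35 markers were tested. The markers called included Aqp2, Adipoq and Aurkb in RNA-seq, Aqp2 and Adipoq in RPF-seq, and Ptprc, Hba-a1 and Aurkb in TE. These belong to the collecting duct, adipocyte, dividing cell, immune and red blood cell lists. No marker of proximal tubule, thick ascending limb, distal convoluted tubule or endothelium met both the FDR and the fold minimum. Without the fold minimum 4 of 5, 2 of 2, 1 of 1 and 2 of 2 markers of these lists passed in RNA-seq (against 48.6% of all tested genes). In RPF-seq 1, 2, 1 and 2 passed (against 30.9%), and in TE 3, 0, 0 and 0 (against 17.1%). The adrenal cortex genes Cyp11b1 and Star were not found by symbol among the genes measured at both levels, so no values are given for them. The 10 markers of dividing cells summed to 18.8 to 34.2 RPKM in RNA-seq, with a median of 24.5 in the light and 24.1 in the dark phase. The adipocyte markers summed to 0.250 to 6.05 RPKM in RNA-seq and were highest at ZT04, soon after the high Cdkn1a levels of ZT00 and ZT02, and their part in those levels was not tested.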

How the data were processed

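RNA-seq and RPF-seq were measured in 24 kidney lysate pools. The authors removed adapters (Cutadapt), kept reads of the expected sizes, aligned them to rRNA, tRNA and then cDNA of the mouse (Bowtie 2.2.1) and to GRCm38.p2 (Tophat 2.0.11), counted those on coding sequences, scaled the counts with the upper quantile method of edgeR and deposited them as RPKM. This scaling hides changes in total RNA per cell. The authors listed only genes above an expression cutoff whose value is not given in the sources used here. Whole reads were recovered from RPKM and coding length and used only to describe depth. This was checked on 1215 to 2153 of the 3276 genes with a single coding length per library, those with the fewest reads. Of their values, 98.4% or more in each library came within 0.05 of a whole number. The lengths behind the values of Xpa (1194) and Ung (1008) equal no single annotated coding sequence.

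Symbols were matched for 12373 of 12423 identifiers. Values were transformed to log2(RPKM + 0.1), so folds of low genes are understated. Tests used limma 3.58.1 in R 4.3.3 (lmFit, eBayes with trend) over 11863 genes with Benjamini-Hochberg adjustment, namely moderated F tests of a 24-h wave (RNA, RPF and TE) and of the timepoint means, and a moderated test of mean TE against the median gene. Alternatives were pseudocounts of 1 and 0.01, a minimum median RPKM of 2 or none, quantile normalisation, a 12-h harmonic, blocking on the replicate number (replicate block) and leaving out each replicate. The genes named besides the 10 are the 3 best correlated with each called gene and up to 3 called genes with the largest folds per pathway list, some of which are not reported here. The 10 genes and all lists were chosen with earlier results of these data known. Coordinates come from GENCODE vM21 (GRCm38) and promoters from RefSeq GRCm38.p6. The p-values of the tests of timepoint means and of steps rest on the spread between pools of the same timepoint. Those of the 24-h wave also count departures of the timepoints from the wave as error. Those of the TE level also count variation over the day. Liver libraries were not analysed here.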

Additional observations from a re-analysis of the deposited data

Results flagged for a closer look

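The RNA and RPF time courses of 5 of the 10 genes differed by the test of the difference itself, since TE is the ratio of both assays (limma, 24-h wave, FDR under 0.05, against 17.1% of all tested genes). The log2 peak-to-trough of TE was 0.51 for Wee1, 1.03 for Cdkn1a, 0.76 for Ccng1, 0.44 for Gadd45g and 0.30 for Mdm2, the last being a gene in which neither level alone passed the FDR. Of these, Ccng1 had its RNA peak at 20.8 h and its RPF peak at 6.92 h. With a 12-h harmonic the FDR rose to 0.13 for Cdkn1a, 0.12 for Gadd45g and 0.069 for Mdm2. Without ZT16 it was 0.052 for Cdkn1a and 0.056 for Gadd45g. Without replicate 1 none of the 5 genes passed the FDR (0.18 to 0.46), and without replicate 2 Ccng1 alone did (0.041, against 0.19 to 0.28 for the other genes). Samples far from the others were not looked for within timepoints, which hold 2 pools each.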

How the results depend on the processing

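Wee1 was called in RNA-seq and in RPF-seq under each alternative tried, and the log2 TE of the 5 genes called for their TE level kept its sign with the other pseudocounts, the other RPKM minimums (Ung was not tested at 2 RPKM) and without either replicate, the alternatives run for it. With a pseudocount of 1 Ung lost its TE level call (log2 0.44). Counts of genes called stayed within 1.5 times the value first given in 90 of 102 recomputations and fell below it in 12. With a pseudocount of 1, 781 genes were called in RNA-seq and 590 in RPF-seq. With quantile normalisation, and also without ZT16 (added after seeing the data), TE was called for 1 of the 10 genes. Leaving out replicate 1 or 2, the calls among the 10 genes numbered 1 to 3 in RNA-seq (722 to 1430 of all genes), 2 to 5 in RPF-seq (370 to 853) and 0 to 1 in TE (0 to 2 by limma, with 1858 to 2545 of all genes and 3 to 4 of the 10 at an unadjusted p under 0.05). These tests had 12 libraries in place of 24. For single genes, 23 of 544 values crossed a threshold. Direction was compared only for called waves, by peak time, and for called TE levels, by sign, and none of these reversed. With the harmonic, Xpa in RNA-seq, Gadd45a in RPF-seq and Wee1 in TE gained a call, and Ung in RNA-seq and Cdkn1a in TE lost theirs. Replicate differences correlated between timepoints with a mean r of 0.029 for RNA (-0.181 to 0.480) and 0.020 for RPF (-0.204 to 0.185). On average the replicate numbers thus did not pair the pools, though single pairs of timepoints in RNA-seq were correlated. With a replicate block 1214, 895 and 455 genes were called in RNA-seq, RPF-seq and TE, with 3, 5 and 2 of the 10 among them. Depth limits Ung and Cdkn1a most, since their RNA rested on medians of 14.5 and 22 reads per library.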

Other observations

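A 12-h component beside the 24-h wave, tested after seeing the data, was called by limma for 0 of the 10 genes, with 2 in RNA-seq (Wee1 and Xpa) and 3 in RPF-seq (Cdkn1a, Ddb2 and Xpa) at an unadjusted p under 0.05. The lowest FDR among them was 0.11 for RNA and 0.16 for RPF, and over all tested genes 0.598% and 0.700% were called. The RPF profiles of Cdkn1a and Ddb2 had the most negative Pearson r of all pairs among the 10 genes (-0.745 over 24 libraries), and in RNA-seq the lowest pair was Wee1 and Cdkn1a (-0.674). Mdm2 and Cdkn1a, both p53 targets, had a Pearson r of 0.618 between their transcripts and -0.181 between their footprints. The other transcript pairs among the p53 targets Cdkn1a, Mdm2, Ccng1 and Gadd45a ran from -0.278 (Mdm2 and Gadd45a) to 0.334 (Mdm2 and Ccng1). These are descriptions of values that share time of day and libraries.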
